A study of Mus musculus with 6 samples.

Results

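Nos2, Gch1, Ass1, Arg1, Arg2, Slc7a2 and Acod1 encode enzymes and 1 transporter that decide what a macrophage does with arginine and with an intermediate of the tricarboxylic acid cycle. All 7 were found in the deposited table of 56691 genes, and all 7 had enough counts to be among the 16641 genes tested. They were chosen by their roles with the fold changes of this same comparison already known, so their values are given as a description, with no p-value of their own. The libraries were made from Kupffer cells, which are liver-resident macrophages, of mice of genotype Vil1Cre-Myd88fl/fl. There were 3 libraries treated with 5-HT (serotonin) and 3 untreated ones, whose column names begin with KO. Both groups carry the floxed allele of Myd88, a signalling adaptor of Toll-like receptors, and a Cre driven by the Vil1 promoter, which is active in gut epithelium and is not a macrophage promoter. The labels give both groups the same genotype and do not say what KO stands for, so whether the groups differ in more than 5-HT is not known from them, and every difference below is between the libraries labelled 5-HT treated and those labelled untreated. The labels do not state strain background, age, sex, dose, duration, route or the number of animals per library, or whether mice or isolated cells received 5-HT.

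Inducible nitric oxide synthase, the product of Nos2, makes nitric oxide from arginine and is switched on in inflammatory macrophages. Arginase takes the same substrate to ornithine and urea. Acod1 makes itaconate from the aconitate of the tricarboxylic acid cycle, and itaconate slows succinate dehydrogenase and modifies cysteines of proteins such as Keap1. In the liver, Arg1, Ass1 and Slc7a2 are also strongly expressed by hepatocytes, where the first 2 work in the urea cycle.

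Of the 7 genes, 3 matched a window in the RefSeq promoter table, and these are shown: Acod1, which differed between the groups, and Gch1 and Ass1, which did not pass the test. Windows of Nos2, Arg1, Arg2 and Slc7a2 are not shown here. Each window runs 5′ to 3′ from 250 bases before to 50 bases after the RefSeq start (GRCm38.p6), and capitals mark matches to GGGNNNNNCC on either strand, a loose form of the NF-kB site. Acod1 lies at chr14:103046762-103047061 on the plus strand, Gch1 at chr14:47189364-47189663 on the minus strand and Ass1 at chr2:31470020-31470319 on the plus strand.
Acod1: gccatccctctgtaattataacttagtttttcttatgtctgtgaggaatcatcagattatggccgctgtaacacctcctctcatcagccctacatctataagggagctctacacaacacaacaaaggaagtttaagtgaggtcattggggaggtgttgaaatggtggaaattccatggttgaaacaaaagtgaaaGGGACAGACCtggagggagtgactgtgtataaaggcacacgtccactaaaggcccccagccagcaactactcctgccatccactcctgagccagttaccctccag
Gch1: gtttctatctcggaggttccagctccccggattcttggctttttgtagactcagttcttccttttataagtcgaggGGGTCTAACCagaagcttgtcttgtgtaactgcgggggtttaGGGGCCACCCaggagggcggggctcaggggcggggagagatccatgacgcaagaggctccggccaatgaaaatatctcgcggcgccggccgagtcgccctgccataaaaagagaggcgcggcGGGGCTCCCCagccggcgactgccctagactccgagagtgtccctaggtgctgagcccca
Ass1: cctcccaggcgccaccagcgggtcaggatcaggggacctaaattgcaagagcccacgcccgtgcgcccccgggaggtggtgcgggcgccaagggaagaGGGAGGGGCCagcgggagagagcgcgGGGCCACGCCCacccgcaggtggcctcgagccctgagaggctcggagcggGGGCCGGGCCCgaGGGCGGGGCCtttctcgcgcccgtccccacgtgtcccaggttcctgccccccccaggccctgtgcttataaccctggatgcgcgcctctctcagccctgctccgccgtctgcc
The Acod1 window held 1 match, from -55 to -46. The Gch1 window held matches at 3 places, the nearest from -10 to -1, and the Ass1 window had 6 matches on the strands together, some of which overlap. Of all 32851 promoter windows, 50.8% hold this pattern, so a match sets none of the 3 apart. The gamma activated site TTCNNNGAA, the cyclic AMP response element TGACGTCA and the C/EBP pattern TTGCNNAA, searched on both strands, were in none of the 3 windows and are in 8.3%, 1.79% and 10.8% of all windows. The Acod1 window was 47% G and C, against 60.3% for Gch1 and 74% for Ass1.

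Total counts ran from 15390956 to 17093251 in the 5-HT treated libraries and from 18187617 to 19050039 in the untreated ones. FPKM is the read count per kilobase of exon, scaled to the library's total count, as the authors deposited it. Nothing says that libraries came from separate animals, so errors and p-values measure the spread between libraries, which may be technical. Defining markers of Kupffer cells were present in every library: Clec4f averaged 284 ± 31.3 FPKM in 5-HT treated and 182 ± 33.5 FPKM in untreated libraries, and Cd5l 362 ± 52.9 FPKM in 5-HT treated and 214 ± 51.8 FPKM in untreated libraries (SD, n = 3 each). Markers of other liver cells were present too. The 11 sinusoidal endothelial markers summed to between 3525 and 4723 FPKM in 5-HT treated and between 4415 and 4485 FPKM in untreated libraries, above the 14 Kupffer cell markers in each of them (1186 to 1447 FPKM in 5-HT treated, 733 to 1063 FPKM in untreated). The 16 hepatocyte markers summed to between 878 and 2523 FPKM in 5-HT treated and between 1094 and 2043 FPKM in untreated libraries. The 12 neutrophil markers summed to between 358 and 937 FPKM with 5-HT and between 145 and 180 FPKM without, with no overlap. The most abundant of them were S100a9, with 301 ± 146 and 79.9 ± 22.6 FPKM, and S100a8, with 141 ± 76.5 and 32.6 ± 5.97 FPKM. Of the 10 tested, 8 had positive log2 values, and Ngp and Ltf had negative ones (-0.81 and -0.33) without passing. Camp and Ly6g were not tested, and Camp was lower with 5-HT and Ly6g higher. No marker of these lists was at 0 in all 6 libraries. Myd88 itself was higher in 5-HT treated libraries, at 29.4 ± 0.695 FPKM, against 18.0 ± 3.18 FPKM in the untreated ones with KO in their column names (SD, n = 3 each; log2 0.71, edgeR adjusted p = 0.0286). The call was lost in 5 of 13 alternatives. In bulk RNA, a change in the number of cells of a type and a change in RNA per cell cannot be told apart.

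With 5-HT, Nos2, Acod1 and Arg2 were higher, Slc7a2 was higher in every treated library without passing the test, and Gch1, Ass1 and Arg1 had groups that overlap. By edgeR's quasi-likelihood test at an adjusted p under 0.05 over all tested genes, 3 of the 7 were called higher, beside 4.55% of all tested genes, and 0 lower, beside 3.19%. None was lower at an unadjusted p under 0.05 or by DESeq2 or limma. FPKM values of the groups did not overlap for 4 of the 7, all higher with 5-HT, beside 15.4% of all tested genes. Nothing is read from these shares, since the comparison was known when the genes were chosen. The median log2 fold change of the 7 was 1.51, against -0.02 over all tested genes.

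**Figure D1:**
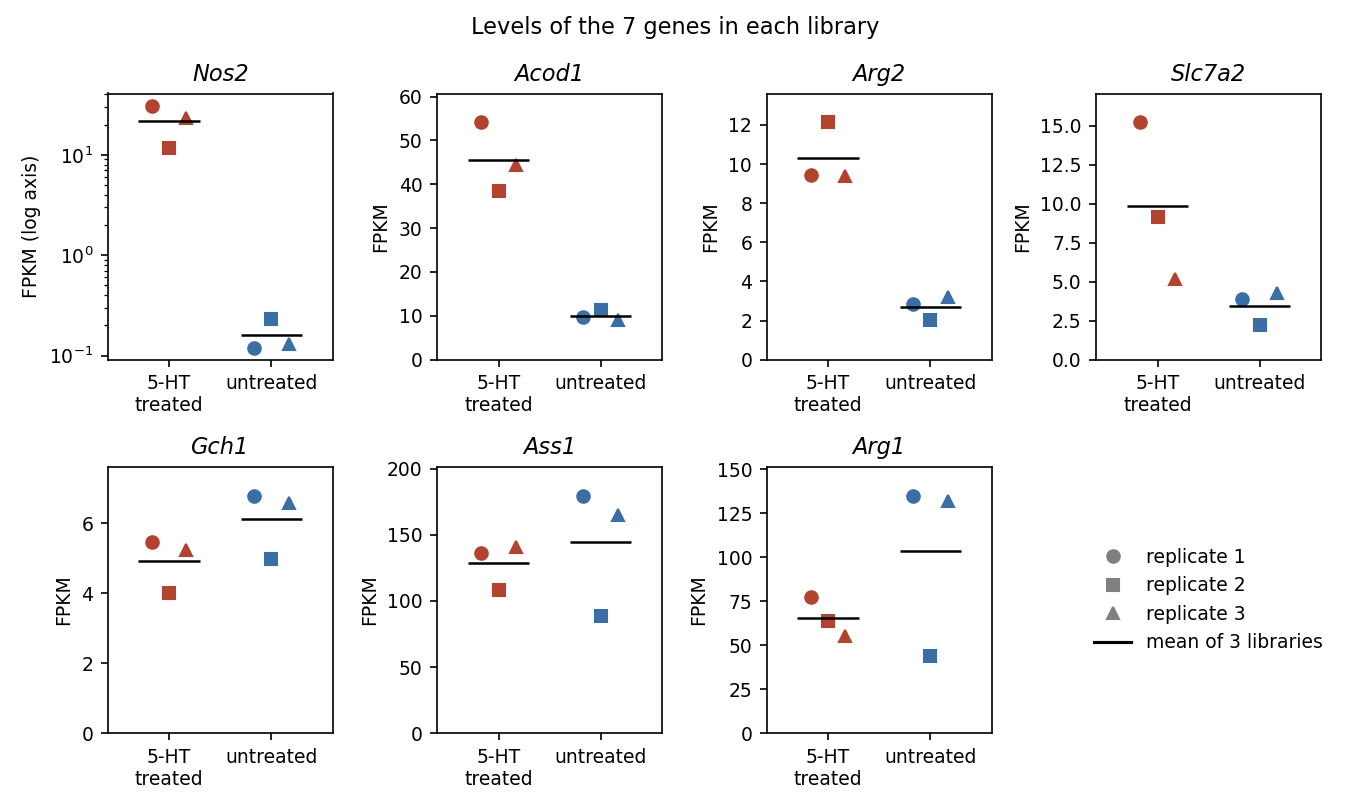
FPKM of each of the 7 genes in each library, 5-HT treated (red) left of untreated (blue), with marker shapes for the replicate number and a line at the mean of 3 libraries; the Nos2 axis is logarithmic and the others start at 0. The groups are apart for Nos2, Acod1, Arg2 and Slc7a2 and overlap for Gch1, Ass1 and Arg1. Untreated replicate 2 is the lowest untreated library for Gch1, Ass1 and Arg1, and also for Arg2 and Slc7a2.

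Nos2 (ENSMUSG00000020826, chromosome 11 from 78920787 to 78960254, plus strand, GRCm38) had 30.9, 11.67 and 23.1 FPKM in 5-HT treated replicates 1 to 3, against 0.12, 0.23 and 0.13 FPKM in untreated replicates 1 to 3. These values rest on 2192, 797 and 1753 reads with 5-HT and on 10, 19 and 11 reads without. The gene was thus close to silent in every untreated library and plainly expressed in every treated one. The fitted difference was 134-fold (log2 7.07, SE 0.47). By FPKM, Nos2 stood at rank 1484 to 4307 among all genes in treated libraries and at rank 18603 to 20596 in untreated ones. Among treated libraries it was lowest in replicate 2, the library with the most neutrophil marker RNA (937 FPKM, against 488 and 358 FPKM in treated replicates 1 and 3). That library also had the lowest Kupffer cell sum (1186, against 1365 and 1447 FPKM) and endothelial sum (3525, against 4077 and 4723 FPKM) of the treated ones. Its monocyte sum was the highest of them (364, against 267 and 186 FPKM). The part of any cell type in the level of Nos2 was not tested.

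Gch1 encodes GTP cyclohydrolase, the first and limiting enzyme of tetrahydrobiopterin, the cofactor without which nitric oxide synthase makes no nitric oxide (ENSMUSG00000037580, chromosome 14 from 47153895 to 47189413, minus strand). It had 5.48, 4.02 and 5.24 FPKM in 5-HT treated libraries, against 6.80, 4.99 and 6.59 FPKM in untreated ones. The groups overlap, and the log2 difference was -0.31 (SE 0.17), on the side opposite to Nos2. Within each group replicate 2 was the lowest. The pseudogenes Gm49134 and Gm18811 lie within Gch1 and had at most 21 and 4 reads in a 5-HT treated library and at most 14 and 6 in an untreated one.

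Slc7a2 encodes the cationic amino acid transporter CAT2, which brings arginine into activated macrophages (ENSMUSG00000031596, chromosome 8 from 40862396 to 40922308, plus strand). It had 15.25, 9.15 and 5.18 FPKM in 5-HT treated replicates 1 to 3, against 3.89, 2.20 and 4.26 FPKM in untreated replicates 1 to 3. All treated values lie above all untreated ones, but the treated libraries differ widely among themselves. The difference was 2.85-fold (log2 1.51, SE 0.40) and did not pass over all genes; it passed with DESeq2, with no filter on low counts and without 5-HT treated replicate 3, where it was 1.81 on the log2 scale. The order of the libraries within each group was that of the hepatocyte markers, which summed to 2523, 1983 and 878 FPKM in 5-HT treated and 1990, 1094 and 2043 FPKM in untreated replicates 1 to 3. At nearly equal marker sums, 1983 and 1990 FPKM, Slc7a2 had 9.15 FPKM in 5-HT treated replicate 2 and 3.89 FPKM in untreated replicate 1. The single markers were not equal there. Alb had 1079.85 FPKM in that treated library and 577.79 FPKM in that untreated one, and Tat 64.57 and 264.44 FPKM. Nothing is therefore read from this pair, and the part of hepatocyte RNA in the level of Slc7a2 was not tested.

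Ass1 encodes argininosuccinate synthase, which rebuilds arginine from citrulline, the by-product of nitric oxide synthesis (ENSMUSG00000076441, chromosome 2 from 31470207 to 31520672, plus strand). It was the most abundant of the 7 in every library, with 136.52, 108.52 and 140.8 FPKM in 5-HT treated libraries, against 179.73, 88.28 and 165.26 FPKM in untreated ones. The treated values lie inside the range of the untreated ones, and the log2 difference was -0.17 (SE 0.27). Leaving out untreated replicate 1 moved it to 0.02.

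Arg1, the cytosolic arginase of hepatocytes and of alternatively activated macrophages (ENSMUSG00000019987, chromosome 10 from 24915221 to 24927484, minus strand), had 77.4, 63.57 and 54.93 FPKM in 5-HT treated libraries, against 134.96, 43.88 and 131.73 FPKM in untreated ones. All 3 treated values lie between untreated replicate 2 and the other untreated libraries. The log2 difference was -0.67 (SE 0.39) and did not pass. Without untreated replicate 2 it was -1.04 (SE 0.15) and passed the threshold. That library also had the lowest hepatocyte marker sum of the untreated libraries, and the part of hepatocyte RNA in the level of Arg1 was not tested.

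Arg2, the mitochondrial arginase (ENSMUSG00000021125, chromosome 12 from 79130777 to 79156301, plus strand), behaved differently from Arg1. It had 9.46, 12.15 and 9.38 FPKM in 5-HT treated libraries, against 2.85, 2.04 and 3.20 FPKM in untreated ones, on 216 to 267 reads with 5-HT and 53 to 87 reads without. The treated libraries were all higher, with little spread, and the difference was 3.83-fold (log2 1.94, SE 0.22). Arg2 stayed the lesser arginase by FPKM: its level was 0.122, 0.191 and 0.171 of that of Arg1 in treated replicates 1 to 3, against 0.0211, 0.0465 and 0.0243 in untreated ones. Arg2 was highest in 5-HT treated replicate 2, which had the most neutrophil marker RNA, while Nos2 and Acod1 were lowest there. That library differed from the other treated ones in further marker sums, and the part of any cell type in these levels was not tested. The last 285 bases of Arg2 overlap Vti1b on the other strand, and the labels do not say whether reads were assigned by strand. Vti1b had 29.4 ± 1.28 FPKM with 5-HT and 28 ± 3.66 FPKM without (SD, n = 3 each), a log2 difference of 0.08.

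Acod1 (ENSMUSG00000022126, chromosome 14 from 103046977 to 103056573, plus strand) had 54.2, 38.37 and 44.38 FPKM in 5-HT treated libraries, against 9.75, 11.23 and 9.03 FPKM in untreated ones. Unlike Nos2 it was already well above the detection limit without 5-HT, with 451 to 537 reads. The difference was 4.59-fold with the smallest standard error of the 7 (log2 2.20, SE 0.14). Acod1 was at 1.75, 3.29 and 1.92 times the FPKM of Nos2 in treated replicates 1 to 3, against 81.2, 48.8 and 69.5 times in untreated ones. The untreated ratios are imprecise, since Nos2 rests on 10 to 19 reads there.

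**Figure D2:**
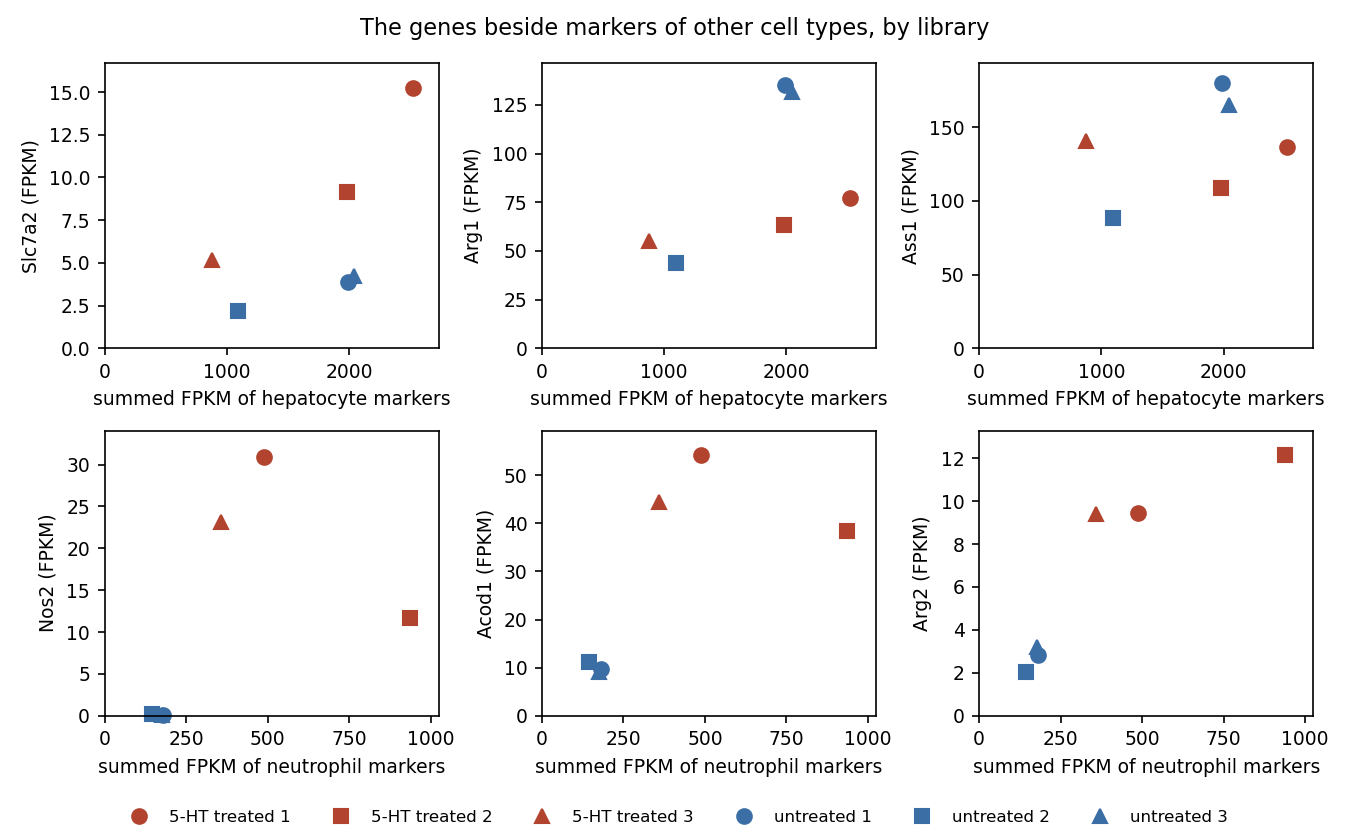
FPKM of 6 of the genes (vertical axes) against the summed FPKM of hepatocyte markers (top row) or neutrophil markers (bottom row) in the 3 5-HT treated (red) and 3 untreated (blue) libraries. Slc7a2 follows the order of the hepatocyte sum within each group, and 5-HT treated replicate 2, at 937 FPKM of neutrophil markers, has the lowest treated Nos2 and Acod1 and the highest treated Arg2. That library differs in other marker sums too, and the part of any cell type in these levels was not tested.

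The summed level of the 7 genes was 329, 247 and 283 FPKM in 5-HT treated replicates 1 to 3, against 338, 153 and 320 FPKM in untreated ones, so it did not separate the groups. Its make-up did. Nos2 held 4.72% to 9.39% of it in treated and 0.0355% to 0.15% in untreated libraries. Acod1 held 15.5% to 16.5% in treated and 2.82% to 7.35% in untreated libraries, the highest untreated share being that of replicate 2, where the sum was lowest. Arg2 held 2.87% to 4.91% in treated and 0.843% to 1.33% in untreated libraries. Arg1 held 19.4% to 25.7% in treated and 28.7% to 41.1% in untreated libraries. Ass1 held 41.5% to 49.8% in treated and 51.6% to 57.8% in untreated libraries, and Gch1 1.62% to 1.85% and 2.01% to 3.26%. Slc7a2 held 1.83% to 4.63% in treated and 1.15% to 1.44% in untreated libraries. Shares of a sum depend on each other, so a share can fall because others rise. In FPKM, the groups overlap for Arg1, Ass1 and Gch1. By FPKM, Arg1 was at 2.5, 5.45 and 2.38 times the level of Nos2 in treated replicates 1 to 3, against 1125, 191 and 1013 times in untreated ones. The untreated ratios are imprecise, since Nos2 rests on 10, 19 and 11 reads there. The part of hepatocyte RNA in the level of Arg1 was not tested.

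**Figure D3:**
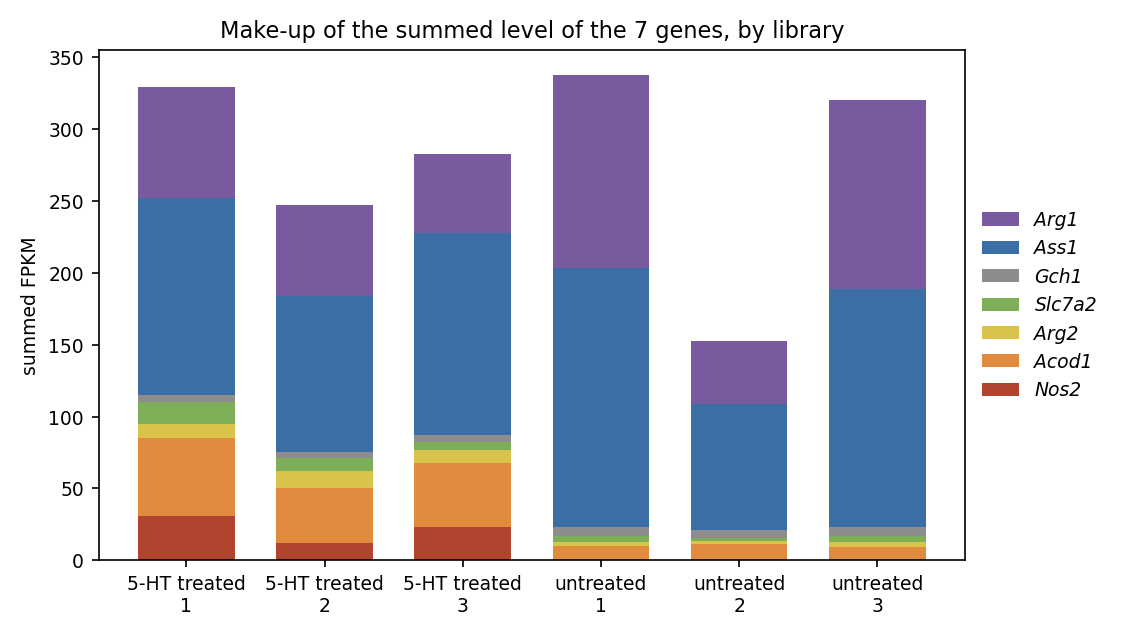
Stacked bars of the FPKM of the 7 genes in each library, 5-HT treated left of untreated; the vertical axis is summed FPKM and starts at 0. Ass1 and Arg1 form most of each bar, and the red, orange and yellow parts (Nos2, Acod1 and Arg2) are larger in each treated library than in any untreated one.

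The genes around these enzymes were taken from 7 lists, with 107 tested genes in all. Of these, 14 were higher, 9 were lower and 84 did not pass by edgeR, with a median log2 fold change of -0.14. Over all tested genes 4.55% were higher and 3.19% were lower by edgeR. This is the background for these counts and for the adjusted edgeR counts of each list below. Over the same 16641 genes, at an adjusted p under 0.05, DESeq2 called 1242 higher and 1022 lower. Limma on log2(FPKM + 1), the limma setting of the list counts, called 674 higher and 481 lower. Counts at an unadjusted p have no such background beside them. Nothing is read from counts at an unadjusted p or by another tool. The counts rest on single libraries: there were 7 higher and 2 lower when 5-HT treated replicate 1 was left out, 8 and 1 when untreated replicate 1 was, and 6 and 1 when untreated replicate 3 was. Lower genes numbered 21 when untreated replicate 2 was left out and 5 when 5-HT treated replicate 3 was. Blocking on the replicate number also left 5 lower.

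Among nitric oxide and tetrahydrobiopterin genes other than Nos2 and Gch1, the called genes were lower. Of 16 tested by edgeR, 0 were higher, 3 were lower and 13 did not pass (median log2 -0.27). At an unadjusted p under 0.05 edgeR gave 2 higher and 5 lower. At an adjusted p under 0.05 DESeq2 called 1 higher and 4 lower, and limma 0 higher and 3 lower. Gucy1b1, a subunit of the guanylate cyclase that senses nitric oxide, fell to 1.28 ± 0.179 FPKM with 5-HT, against 2.72 ± 0.319 FPKM in untreated libraries (SD, n = 3 each; log2 -1.08, edgeR adjusted p = 0.016). Pcbd1, which recycles the cofactor, and Ddah1, which removes methylarginine inhibitors of nitric oxide synthase, fell with log2 changes of -0.82 and -0.72 (edgeR adjusted p = 0.0328 and 0.0383). Gucy1b1, Pcbd1 and Ddah1 failed the threshold in 3, 6 and 4 of 13 alternatives. Nos3, the endothelial synthase, had 69.52, 60.62 and 95.94 FPKM in 5-HT treated libraries, against 55.67, 50.07 and 46.43 FPKM in untreated ones, without passing (log2 0.58, edgeR adjusted p = 0.0987). Nostrin, which binds and moves that synthase, had 62.3 ± 20.6 FPKM with 5-HT and 42.0 ± 6.71 FPKM without (log2 0.58, edgeR adjusted p = 0.202). Of the 11 sinusoidal endothelial markers, 1 was higher, 4 were lower and 6 did not pass in the same libraries (median log2 -0.38). The most abundant, Clec4g, had 536 ± 110 FPKM with 5-HT and 691 ± 27.9 FPKM without (log2 -0.36), and did not pass. The marker that was higher, Lyve1, had 887 ± 120 FPKM with 5-HT and 257 ± 10.2 FPKM without. The part of endothelial RNA in the level of Nos3 was not tested.

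Few genes of the list of arginine and cationic amino acid transport, Slc7a2 aside, were called. Of 10 tested, 1 was higher, 1 was lower and 8 did not pass (median log2 -0.04). Slc7a1, the transporter CAT1 of most cells, rose to 3.22 ± 0.685 FPKM with 5-HT, against 1.93 ± 0.227 FPKM without (log2 0.74, edgeR adjusted p = 0.0355). It failed the threshold in 7 of 13 alternatives. Slc7a5, the light chain of the large neutral amino acid transporter, fell to 16.52, 19.33 and 21.41 FPKM with 5-HT, against 53.03, 46.41 and 46.96 FPKM without (log2 -1.35, SE 0.13, edgeR adjusted p = 0.00187), and it passed in all 13. Its partner chain Slc3a2 had 89.3 ± 5.8 FPKM with 5-HT and 91.4 ± 5.72 FPKM without (log2 -0.03, edgeR adjusted p = 0.898).

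In the list of the urea cycle and the side routes of arginine, 1 of 13 tested genes was higher and 2 were lower (median log2 -0.50). The gene that rose was Odc1, ornithine decarboxylase, which takes the ornithine made by arginase into polyamines. It had 100.64, 88.42 and 104.55 FPKM in 5-HT treated libraries, against 27.19, 30.23 and 23.54 FPKM in untreated ones (log2 1.87, SE 0.12, edgeR adjusted p = 0.00107). Like Arg2, it was higher in every treated library, and the call was kept in all 13 alternatives. Gatm, which uses arginine for creatine synthesis, fell to 50.9 ± 6.48 FPKM with 5-HT, against 80.1 ± 7.92 FPKM without (log2 -0.65, edgeR adjusted p = 0.0305). The mitochondrial aspartate and glutamate carrier gene Slc25a13 fell with a log2 change of -0.95 (edgeR adjusted p = 0.0479). Gatm and Slc25a13 failed the threshold in 4 and 8 of 13 alternatives. The hepatocyte urea cycle genes Cps1, Otc and Asl, picked with their values known, failed the test (log2 -0.08, -0.99 and -0.29).

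No gene of the tricarboxylic acid cycle and itaconate breakdown passed by edgeR. Of 24 tested by edgeR, 0 were called at an adjusted p under 0.05 and 22 had negative log2 values. The median was -0.24, against -0.02 over all tested genes. At an unadjusted p under 0.05 edgeR gave 10 lower and 0 higher, and limma 13 lower and 1 higher. No share over all genes stands beside these counts, so no decline of the list is read from them. At an adjusted p under 0.05 DESeq2 called 1 lower and limma 0. Sdha, a subunit of the succinate dehydrogenase that itaconate inhibits, had 48.3 ± 0.771 FPKM with 5-HT and 60.0 ± 6.88 FPKM without (log2 -0.31, edgeR adjusted p = 0.149). Idh1, a cytosolic isocitrate dehydrogenase, had 46.3 ± 3.3 FPKM with 5-HT and 65.2 ± 15.0 FPKM without (log2 -0.49, edgeR adjusted p = 0.148).

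Part of the electrophile response genes rose: 4 of 12 tested were higher by edgeR, 0 were lower and 8 did not pass (median log2 0.15). No gene of this list was lower at an unadjusted p under 0.05 or by DESeq2 or limma. Hmox1, heme oxygenase, had 127.6, 105.34 and 121.32 FPKM in 5-HT treated libraries, against 79.32, 66.61 and 63.71 FPKM in untreated ones (log2 0.76, edgeR adjusted p = 0.0118). Srxn1 and Txnrd1, which repair oxidised thiols, rose with log2 changes of 0.76 and 0.83 (edgeR adjusted p = 0.0152 and 0.025). Nfe2l2, the transcription factor of this response, rose with a log2 change of 0.57 (edgeR adjusted p = 0.0473). It failed the threshold in 5 of 13 alternatives, against 1, 2 and 3 for Hmox1, Srxn1 and Txnrd1. Atf3, which itaconate derivatives are known to induce, had overlapping groups (log2 -0.25, edgeR adjusted p = 0.544). Oxgr1, an itaconate receptor, was listed at 0 in every library.

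Among known inducers of Nos2 and Acod1, 7 of 18 tested genes were higher, 1 was lower and 10 did not pass (median log2 0.41). Il1b, a cytokine, rose to 193 ± 27.8 FPKM with 5-HT, against 62.1 ± 4.09 FPKM without (log2 1.64, edgeR adjusted p = 0.00138). The receptors Tlr4 and Tlr2 and the NF-kB subunit Rela rose with log2 changes of 1.10, 0.80 and 0.61 (edgeR adjusted p = 0.00187, 0.00298 and 0.00604). All 4 calls were kept in all 13 alternatives. The interferon side, named after its values were seen, was mixed: Ifngr2 and Jak2 rose (log2 0.59 and 0.51), the call of Jak2 being lost in 8 of 13 alternatives, while Irf1 (log2 0.27) did not pass. Cebpd was the gene that fell (log2 -0.72, edgeR adjusted p = 0.0324), a call that 5 of 13 alternatives did not keep, the replicate block among them. Jak1 had 201 ± 17.4 FPKM with 5-HT and 188 ± 6.73 FPKM without (log2 0.10). Neutrophil markers were higher in the same libraries (6 of 10 tested were higher, median log2 1.54), as were 5 of 14 Kupffer cell markers (median log2 0.68), and their part in these changes was not tested.

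Genes of alternative activation, the state in which macrophages are known for arginase, were mostly not called: of 14 tested, 1 was higher, 2 were lower and 11 did not pass (median log2 -0.28). Il4ra, the interleukin 4 receptor chain, rose to 84.8 ± 14.1 FPKM with 5-HT, against 50.5 ± 4.23 FPKM without (log2 0.75, edgeR adjusted p = 0.017), and missed the threshold in 3 of 13 alternatives. The chemokine genes Ccl17 and Ccl22 fell with log2 changes of -2.52 and -1.88 (edgeR adjusted p = 0.0328 and 0.0441), calls lost in 6 and 8 of 13 alternatives. Both were low: Ccl17 rests on 8, 2 and 4 reads in 5-HT treated libraries, against 30, 43 and 21 in untreated ones. Ccl22 rests on 68, 38 and 61 reads with 5-HT, against 166, 402 and 139 without. The mannose receptor Mrc1 had 370 ± 48.9 FPKM with 5-HT and 510 ± 60.0 FPKM without, and the transcription factor Klf4 91.6 ± 17.3 FPKM with 5-HT and 124 ± 7.68 FPKM without (log2 -0.46 and -0.43, neither past the threshold).

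**Figure D4:**
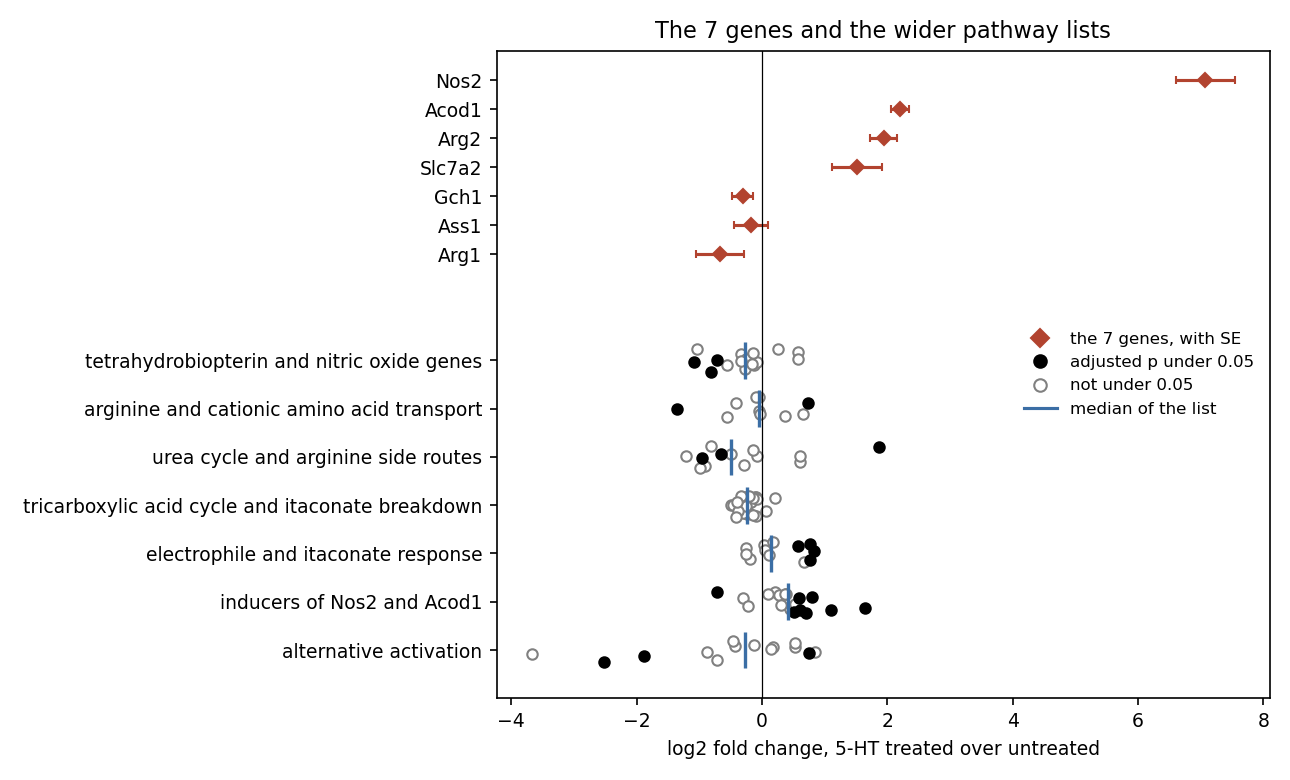
log2 fold change, 5-HT treated over untreated, of the 7 genes (diamonds with the standard error) and of the tested genes of the 7 surrounding lists (circles, filled where the edgeR adjusted p was under 0.05; vertical lines are list medians). Nos2 at 7.07 lies beyond every gene of the lists, whose highest value is 1.87 for Odc1, and the tricarboxylic acid cycle list has no filled circle.

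Genes whose values ran most like those of 3 members over the 6 libraries were ranked by the root mean square difference of centred log2 CPM, among 7678 genes whose higher group averaged 5 FPKM or more. This distance includes the difference between the groups, so genes with a like log2 change rank near by construction. It was not a test of shared regulation. The nearest to Acod1 (log2 2.20) were Sele, Asb4 and Fpr2, at 0.12, 0.13 and 0.16, with log2 changes of 1.99, 2.05 and 2.47. Sele, the endothelial adhesion molecule E-selectin, had 11.84, 7.88 and 9.58 FPKM in 5-HT treated libraries, against 2.44, 2.73 and 2.24 FPKM in untreated ones. Fpr2, a formyl peptide receptor of myeloid cells, had 52.67, 36.45 and 40.31 FPKM with 5-HT, against 8.06, 7.79 and 7.57 FPKM without. The nearest to Nos2 (log2 7.07) were farther off: Ctsj, Saa2 and Npy, at 0.93, 1.45 and 1.49, with log2 changes of 5.29, 5.66 and 4.81. Ctsj and Saa2 belong to gene families whose copies may share reads. The nearest to Gch1 were Pla2r1, Trp53inp2 and Enpep, at 0.08, 0.08 and 0.09.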

How the data were processed

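Per the labels' protocols, TRIzol RNA from Kupffer cells was made into mRNA libraries and sequenced on a NovaSeq system. The authors deposited raw read counts per gene and FPKM for 3 5-HT treated and 3 untreated libraries, per the file headers. The submitters' processing notes list the mm10 build, featureCounts 2.0.1 and HISAT2 2.2.1; the labels do not say whether strand was used. Each of 80620 deposited FPKM values of at least 1 lay within 0.5% or rounding of count over exonic length and column total. The exonic length is also as deposited. Positions are those of GENCODE M21 (GRCm38), by identifier.

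Counts were tested with edgeR 4.0.16 in R 4.3.3 (TMM, filterByExpr, quasi-likelihood, two-sided), with Benjamini-Hochberg adjustment over 16641 genes and a threshold of 0.05. The code was tested on simulated data. The standard error is the log2 fold change over the square root of F. DESeq2 1.42.0, limma 3.58.1 on log2(FPKM + 1) and log2(FPKM + 0.1), RLE scaling, other filters, the replicate number as a replicate block, and fits without each library, were alternatives. Calls counted as lost had an adjusted p of at least 0.05.

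The 7 genes, the lists and the tests were chosen with earlier results of these data known. The text names the 7, the called genes of each list (at most 4, by smallest p), the 2 most abundant genes of each surrounding list, and the genes most like Nos2, Acod1 and Gch1. Marker lists of monocytes, stellate cells, B and plasma cells, T and NK cells and dendritic cells had median log2 values of 0.46, -0.95, 0.23, 0.02 and -0.38.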

Additional observations from a re-analysis of the deposited data

How the results depend on the processing

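Nos2, Acod1 and Arg2 kept their direction and stayed past the threshold in all 13 alternatives. Their log2 values were 4.20 to 7.40, 2.06 to 2.31 and 1.62 to 2.09. The lowest Nos2 value came from limma on log2(FPKM + 1), where the added 1 shrinks low genes. All alternatives refit the same libraries, and the 7 genes were chosen with this comparison known. Whether a member passed is thus a description of the processing and no support for a difference. Gch1 stayed between -0.45 and -0.19. Ass1 ran from -0.43 to 0.02, the positive value without untreated replicate 1; the cause was not tested. Arg1 ran from -1.04 to -0.44 and passed only without untreated replicate 2. Slc7a2 ran from 1.06 to 1.81 and passed in 3 of 13. DESeq2 called 1242 genes higher and 1022 lower, and 18 lower in the surrounding lists, against 757, 531 and 9 by edgeR. Leaving out 1 library gave 218 to 672 genes higher, 111 to 675 lower, 6 to 13 higher in the lists and 1 to 21 lower in them. With the replicate block 5 genes of the lists were lower. Same-numbered libraries deviated from their group means with correlations of 0.0749, 0.0727 and -0.0115, and not every library correlated best with its own number. These small correlations over all genes cannot tell whether same-numbered libraries share a batch. With the replicate block the SE fell from 0.17 to 0.10 for Gch1 and from 0.27 to 0.16 for Ass1. It also fell from 0.47 to 0.41 for Nos2, from 0.39 to 0.35 for Arg1 and from 0.40 to 0.37 for Slc7a2. It rose from 0.22 to 0.25 for Arg2 and from 0.14 to 0.15 for Acod1. Low counts of Nos2 in untreated libraries (10 to 19 reads) limit the precision of its fold change.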

Other observations

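Untreated replicate 2 stood apart from the other untreated libraries in Arg1 and Ass1, and in 2 genes named here after their values were seen. These are not the only such genes. The hepatocyte markers Tat and Pck1 had 105.27 and 95.87 FPKM in that library, against at least 259.61 and 265.68 FPKM in the other untreated ones. The hepatocyte marker Ttr was not lower there. Gchfr, the feedback regulator of GTP cyclohydrolase, had 4.17, 3.42 and 3.81 FPKM in 5-HT treated replicates 1 to 3, against 9.97, 3.74 and 9.85 FPKM in untreated replicates 1 to 3. Retnla, a marker of alternative activation, had 2.19, 7.38 and 0.39 FPKM in the treated libraries, against 62.78, 10.8 and 51.62 FPKM in the untreated ones. In Gchfr and Retnla, as in Arg1 and Ass1, untreated replicate 2 lay nearer to the treated libraries than to the other untreated ones. Neither Gchfr nor Retnla passed over all genes (log2 -1.04 and -3.67, edgeR adjusted p = 0.16 and 0.0566). In untreated replicate 2, Nos2, Acod1 and Arg2 had 0.23, 11.23 and 2.04 FPKM. In untreated replicates 1 and 3, Nos2 had 0.12 and 0.13 FPKM, Acod1 9.75 and 9.03 FPKM, and Arg2 2.85 and 3.2 FPKM. The groups of Nos2, Acod1 and Arg2 do not overlap, which was known when the genes were chosen. No contrast with Arg1 and Ass1 is therefore read from these values. Marker sums of that library differed from those of the other untreated ones too. Monocyte markers summed to 267, 364 and 186 FPKM in 5-HT treated replicates 1 to 3, against 176, 368 and 187 FPKM in untreated replicates 1 to 3. Hepatocyte markers summed to 1094 FPKM in untreated replicate 2, against 1990 and 2043 FPKM in untreated replicates 1 and 3, and Kupffer cell markers to 733 FPKM, against 1063 and 926 FPKM. Their part in these values was not tested.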
